A study of Drosophila ananassae and Drosophila erecta and Drosophila sechellia with 40 samples.

Results

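In the adult antenna, 45 genes were listed in D. sechellia at no more than 0.25 of their level in each of D. melanogaster, D. simulans and D. erecta. They were chosen from 25214 gene names in the adult table by their listed means: D. sechellia above 0, each of the other 3 species at 100 normalized counts or more, and the ratio of D. sechellia to the lowest of the 3 at most 0.25. Of the 6062 names above 0 in D. sechellia and at 100 or more in the other 3, 51 met the ratio (0.841%), and chemosensory, detoxification and cuticular protein families (names starting Or, Ir, Gr, Obp, Cyp, Gst, Ugt or Cpr) together with CG5728, HP1c and tho2 were set aside, which removed 6 names. Another 76 names were listed at 0 in D. sechellia with the other 3 at 100 or more and are not among the members, since a 0 does not tell a missing ortholog from an absence of reads. Because adult levels chose the members, adult values are given as a description and only the 3 earlier stages were tested.

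The RNA came from pools of wild-type flies of D. sechellia, D. simulans, D. erecta, D. ananassae and D. virilis, 1 stock strain per species, reared at 20 °C with no treatment. Antennal discs were taken from wandering larvae (3L, 70 individuals per pool) and 8 hours after puparium formation (p8, 70 individuals), and antennae at 40 hours (p40, 70 individuals) and from adults of both sexes (AA, 300 individuals). D. virilis discs and antennae were collected at 10 and 48 hours. The paper states that white pupae of D. sechellia, D. erecta and D. virilis were kept in a warmer incubator until dissection. Adults were aged for days after eclosion. Each species and stage had 2 libraries, 40 in all, while D. melanogaster was represented by the authors' mean only and entered no test.

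D. sechellia lives on the fruit of a single host plant, and its antenna is known for enlarged populations of the olfactory neurons that detect that fruit, whereas D. simulans, its close relative, is a generalist and D. erecta is a seasonal specialist. The antenna is patterned in the larval disc, its sensory precursors are selected early in the pupa, receptor expression and axon wiring begin in mid pupa, and the adult organ holds mature neurons, support cells and glia. Those members with an established role include chromatin factors (Cp190, upSET, wde), RNA-processing and decay factors (Dcr-1, Upf3), ubiquitin-like and ubiquitin enzymes (Ulp1, Bruce), membrane and trafficking proteins (pcx, Kul, Rabex-5), metabolic and redox enzymes (Pdxk, AOX1, Duox) and genes of excitable cells (qvr, dpr3).

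Single-library values were recovered from the listed means, each being the average of 2 whole read counts divided by their size factors. At p8 and p40 every value was resolved, with 12831491 to 26658372 reads per library of D. sechellia, D. simulans and D. erecta. At 3L and AA between 97.3% and 99.8% of values were resolved, and the depth is unknown because the most abundant genes were not. The libraries are called a and b within each species and stage and cannot be tied to replicate numbers. Summed over the marker genes of a tissue, the adult means of D. sechellia were above both others for eye (24373 against 755 for D. simulans and 1809 for D. erecta), fat body (8444 against 2072 and 1069), Johnston's organ (5381 against 136 and 2671) and olfactory neurons with their support cells (630546 against 488033 and 557093). They were below both for cuticle and epidermis (3672 against 6557 and 6416) and glia (39881 against 53332 and 66779), and between them for muscle (4544 against 1799 and 12837) and haemocytes (3468 against 1501 and 3637). D. melanogaster was below D. sechellia for glia, at 19631, and above it for cuticle and epidermis, at 7043. The eye sum was 3283 in library a and 45464 in library b of D. sechellia. Listed at 0 were Rh5 in D. sechellia, then Rh3, ninaC, norpA, Yp3, iav, Ir8a, moody and y for D. simulans and Rh3 for D. erecta, so the sums of these species lack those genes. No marker gene was a member, and the part of these tissues in the adult levels was not tested. Fewer cells of a type and less RNA per cell cannot be told apart in these pooled tissues. Library a of D. sechellia alone lay at or below 0.25 of the lowest other mean for 40 of 45 members and library b alone for 43. These counts are a description, since the means that chose the members average these same 2 libraries.

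Among the 45 members the D. sechellia mean in AA ranged between 5.75 (CG31086) and 2001 (AOX1) normalized counts with a median of 55.8, and the lowest mean of the other 3 species between 115 (CG18208) and 34833 (CG34120) with a median of 422. The ratio ran from 0.0158 (CG8993) to 0.249 (jdp), with a median of 0.178. The members just inside the ratio limit were AOX1, dpr3 and jdp, at 0.242, 0.248 and 0.249, and the genes just outside it were Rfabg, Pop2 and CG17271, at 0.253, 0.254 and 0.254. At the level limit, CG18208, CG12818 and CG13793 lay just inside with a lowest other mean of 115, 120 and 123, and Dop1R1, CG1494 and ft just outside with 91.6, 79.4 and 60.5. Both D. sechellia libraries were below all 4 libraries of D. simulans and D. erecta in 41 of the 44 members with all 6 resolved, where the share over all genes was 20.9%. This is a description, since the same values chose the members. In 30 of the 44 every single library passed the ratio as well.

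**Figure D1:**
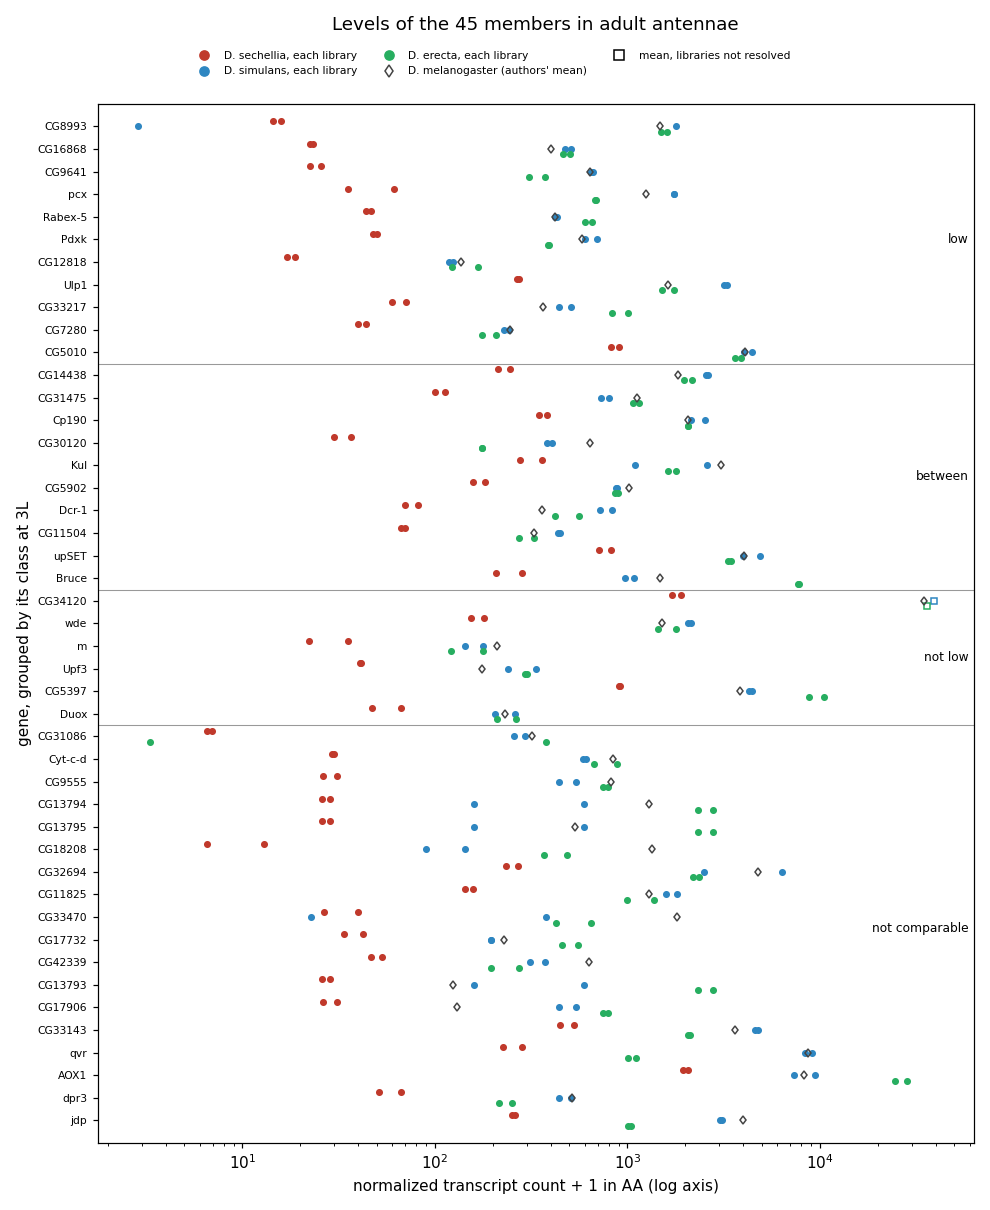
Level of each member in adult antennae as normalized transcript count + 1 (log axis), with 1 point per library for D. sechellia, D. simulans and D. erecta and the authors' mean for D. melanogaster. Genes are grouped by their class at 3L, and the D. sechellia points lie left of the others except for CG8993, CG31086 and CG33470, where 1 library of D. simulans or D. erecta also lies low.

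The adult levels were not low in D. sechellia alone for every member. D. sechellia had the lowest mean of all 6 species in 37 of 45, and D. ananassae and D. virilis were both at 4 times D. sechellia or more in 26. D. ananassae was under 4 times D. sechellia in 10 members and listed at 0 in 2 (CG34120 and CG9641), and D. virilis was under 4 times in 11 and listed at 0 in 3 (CG9641, CG33217 and dpr3). In 4 members (CG8993, Cyt-c-d, m and qvr) at least 1 of these species was above 0 yet below D. sechellia. The miniature gene m, which encodes a zona pellucida domain protein of the wing cuticle, was lower still there, with a D. sechellia mean of 27.7 against 16.7 in D. ananassae and 10.1 in D. virilis.

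CG13793, CG13794 and CG13795, members of the sodium-dependent neurotransmitter transporter family, were listed with identical values in all 5 species with libraries, as were CG9555 and CG17906, so the 45 names hold 42 separate sets of values. Counts per gene cannot be told apart within these sets, and the D. melanogaster means alone differed.

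To separate genes low in adults only from those already low in the larval disc, each member was classed at 3L by the same ratio. Low means at most 0.25 of each of the other 3 species, not low means above 0.5 of the lowest of the 3, and between is the range from 0.25 to 0.5, all with the 3 at 30 or more. With these limits 11 members were low at 3L, 10 were between, 6 were not low, and 18 could not be compared because at least 1 of the 3 was under 30. Over all names comparable at 3L, 0.596% were low and 96.4% were not low. At p8 the members divided into 16 low, 5 between, 10 not low and 14 not comparable, where 0.615% of all comparable names were low and 96.4% not low. At p40 they divided into 15, 9, 11 and 10, where 0.58% of names were low and 96.3% not low. The same rule applied to the 3L table picked 26 names, of which 11 were members, a share of 42.3% of that list and 24.4% of the members. At p8 it picked 30 names with 14 members, 46.7% of that list and 31.1% of the members. At p40 the counts were 30 and 15, 50% and 33.3%.

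Of the 36 members tested at 3L, 21 were lower in D. sechellia than in both D. simulans and D. erecta (limma on log2(count + 1), adjusted p under 0.05 in each), against 8.72% of all genes tested, and 1, wde, was higher than in both, against 7.86%. At p8, 24 of 38 were lower, against 7.46%, and 1, CG33470, was higher, against 6.77%. At p40, 25 of 43 were lower, against 5.91%, and wde was again the 1 that was higher, against 6.36%. As a description, the median log2 fold change of the tested members was -2.07 against D. simulans and -1.82 against D. erecta at 3L, -2.67 and -2.43 at p8, and -2.21 and -2.20 at p40, while the medians over all genes lay between -0.01 and 0.11. Both D. sechellia libraries lay below all 4 others in 23 members at 3L, where 17.6% of genes did, in 27 at p8, where 16.8% did, and in 26 at p40, where 16.5% did. Called lower at all 3 earlier stages were 17 of the 45, at 2 stages 4, at 1 stage 11 and at none 13. Of the 32 members tested at all 3 stages the same 17 were lower at each, against 2.82% of all genes tested at all 3, and only 5 of the 13 called at none had been tested at every stage. D. melanogaster, which entered no test, had a mean under 2 times that of D. sechellia in 1 of the members called lower at 3L (CG33143), 2 at p8 (CG31475 and Duox) and 3 at p40 (CG11825, AOX1 and dpr3). A gene was tested where both species were above 0 and 1 of them averaged 10 or more, which left 9 members untested at 3L, 7 at p8 and 2 at p40, so counts over the tested members describe those that passed this filter. The change between stages was not tested, since each stage was normalized on its own.

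**Figure D2:**
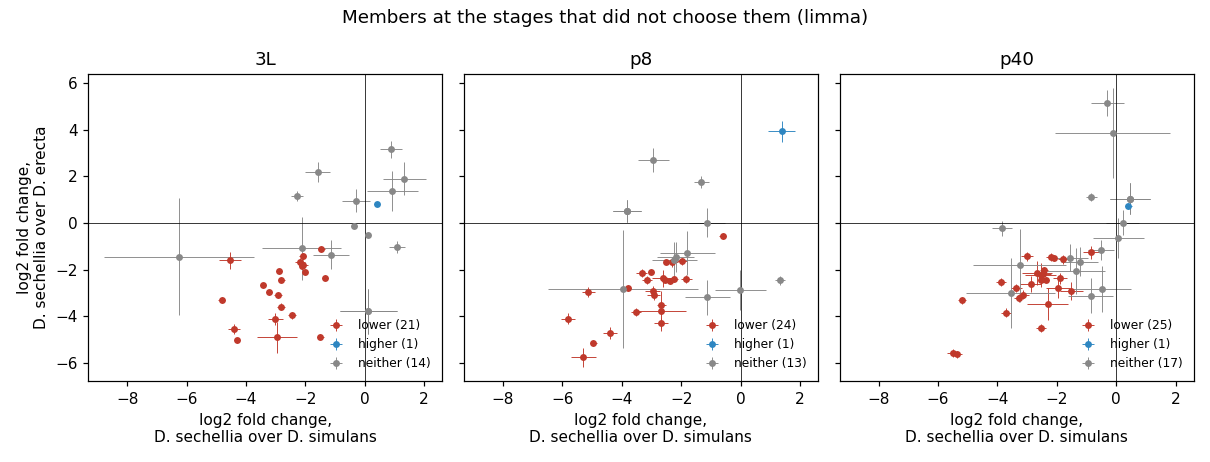
log2 fold change of D. sechellia over D. simulans (x axis) and over D. erecta (y axis) at 3L, p8 and p40, with standard errors as bars and 1 point per tested member. Red points (21, 24 and 25) are lower in D. sechellia than in both, blue points (1 at each stage) are higher, and grey points passed the test against at most 1 species or in opposite directions.

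Of the 11 members low at 3L, 10 were called lower there. The class and the call rest on the same 3L values, so this count is a description. At p8 and p40 too, 8 of the 11 were low: CG16868, CG9641, pcx, Pdxk, CG12818, Ulp1, CG33217 and CG7280. Ulp1, a protease that processes and removes the small modifier SUMO, had 579 and 645 normalized counts in the D. sechellia libraries, against 6249 and 6959.9 for D. simulans and 3974 and 3857 for D. erecta. All D. sechellia values lay far below, and the log2 fold change was -3.43 ± 0.09 against D. simulans and -2.68 ± 0.09 against D. erecta (adjusted p = 5.5e-09 and 7.6e-08). The ratio to the lowest other species was 0.161 at 3L, 0.145 and 0.172 in the pupal stages and 0.167 in adults. In AA Ulp1 had 274 and 266 normalized counts in the D. sechellia libraries, against 3160.4 and 3279 for D. simulans and 1518 and 1736 for D. erecta.

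The multi-pass membrane protein Pecanex (pcx), a component of the Notch pathway, had 71.6 and 79.9 normalized counts in the D. sechellia libraries, against 2275 and 2078 for D. simulans and 687 and 829 for D. erecta at 3L. Its log2 fold change there was -4.83 ± 0.13 against D. simulans and -3.30 ± 0.13 against D. erecta (adjusted p = 4.8e-09 and 1.5e-07). The D. sechellia libraries stayed under 100 at every stage, with 37.01 and 52.1 at p8, 81.98 and 95.1 at p40 and 60.1 and 34.2 in AA. The adult libraries of D. simulans held 1754 and 1739.6 and those of D. erecta 683 and 679, and the groups did not overlap at any stage.

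Pdxk encodes pyridoxal kinase, which activates vitamin B6. At 3L it had 44.4 and 44.4 normalized counts in the D. sechellia libraries, against 408 and 442 for D. simulans and 362 and 351 for D. erecta, at a log2 fold change of -3.23 ± 0.11 against D. simulans and -2.98 ± 0.11 against D. erecta (adjusted p = 2.4e-08 and 1.5e-07). In AA the 2 D. sechellia libraries held 46.7 and 49.04, against 599.7 and 696 for D. simulans and 391 and 384 for D. erecta. The groups did not overlap at any of the 4 stages.

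CG9641 and CG16868 had the smallest ratios of the members comparable at 3L, 0.0445 and 0.0502. For CG16868 the 3L libraries held 69.5 and 74.7 normalized counts in the D. sechellia libraries, against 1352 and 1521 for D. simulans and 2369 and 2372 for D. erecta, a log2 fold change of -4.29 ± 0.10 against D. simulans and -5.02 ± 0.10 against D. erecta (adjusted p = 3.5e-09 and 5.1e-09), and the ratio was 0.0237 at p40 and 0.055 in AA. CG9641 had 15.04 and 14.8 normalized counts in the D. sechellia libraries, against 329 and 341 for D. simulans and 404 and 336 for D. erecta at 3L, a log2 fold change of -4.40 ± 0.21 against D. simulans and -4.54 ± 0.21 against D. erecta (adjusted p = 2.1e-06 and 3.7e-06). It was listed at 0 in D. ananassae and D. virilis at all 4 stages. For CG12818 the ratio was 0.152, 0.145, 0.127 and 0.141 from 3L to AA, for CG33217 it was 0.182, 0.151, 0.188 and 0.178, and for CG7280 0.131, 0.156, 0.118 and 0.213. These 3 genes were called lower at all 3 earlier stages, and their D. sechellia libraries reached at most 160.4 normalized counts at any stage.

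CG5010, the fly counterpart of the mitochondrial CHCHD2 proteins, was low at 3L with a ratio of 0.237. It held 175 and 152 normalized counts in the D. sechellia libraries, against 1209 and 1227 for D. simulans and 707 and 676 for D. erecta at 3L. In AA it held 906 and 822 in the D. sechellia libraries, against 4429 and 4051 for D. simulans and 3894 and 3640.0 for D. erecta. D. sechellia was below every other library at both stages, with an adult ratio of 0.229, and was called lower at 3L, p8 and p40.

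The other pair of genes low at 3L did not keep one level. Rabex-5, an exchange factor for the endosomal GTPase Rab5, was lower at 3L (log2 fold change -2.82 ± 0.14 against D. simulans and -3.58 ± 0.14 against D. erecta (adjusted p = 2.1e-07 and 1.7e-07)) and had 58.01 and 67.3 normalized counts in D. sechellia, against 469 and 428 for D. simulans and 759 and 758 for D. erecta. At p40 its D. sechellia libraries held 536 and 37.1, 1 of them within the range of the other species. CG8993 was the member with the smallest adult ratio, and its libraries were far apart in many species. In AA it had 13.3 and 14.9 for D. sechellia, against 1785 and 1.86 for D. simulans and 1495 and 1613 for D. erecta. At 3L D. erecta held 1.75 and 387, so that CG8993 was not called against both species (adjusted p = 0.063 against D. simulans and 0.68 against D. erecta).

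**Figure D3:**
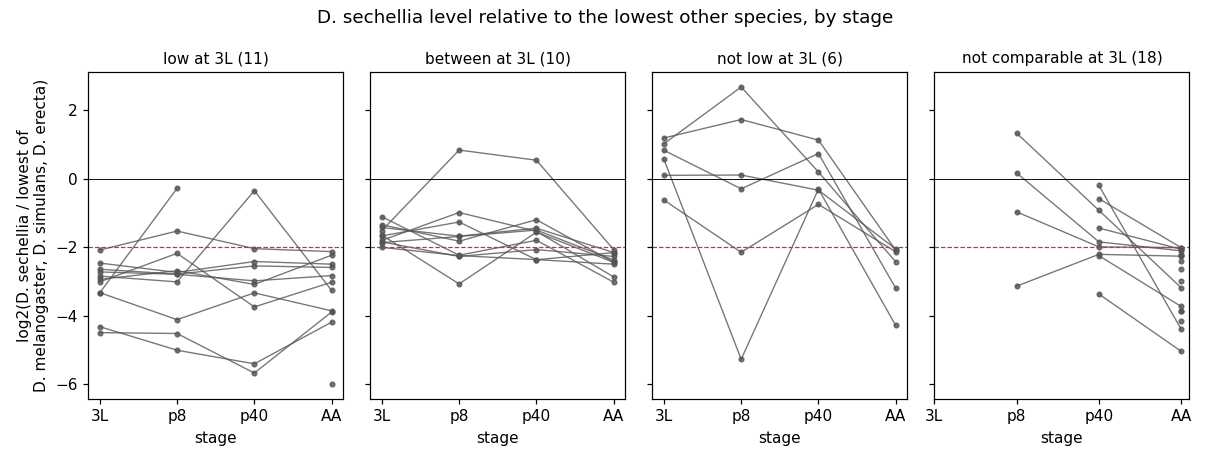
log2 ratio of the D. sechellia mean to the lowest mean of D. melanogaster, D. simulans and D. erecta at 3L, p8, p40 and AA, with 1 line per member and points left out where the lowest mean is under 30. The dashed line marks the ratio of 0.25 that chose the members in AA, below which 11 members also lie at 3L.

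All 10 members in the range between were called lower at 3L. This count is a description, since the same 3L values set the class. Of the 10, 8 were called lower at all 3 earlier stages. Dcr-1, the ribonuclease that cuts microRNA precursors, had 322 and 308 normalized counts in the D. sechellia libraries, against 2063 and 2375 for D. simulans and 1734 and 1651 for D. erecta at 3L, with a log2 fold change of -2.81 ± 0.13 against D. simulans and -2.42 ± 0.13 against D. erecta (adjusted p = 1.2e-07 and 1e-06). In AA it held 81.2 and 69.1 in the D. sechellia libraries, against 828 and 716 for D. simulans and 561 and 419 for D. erecta. The ratio was 0.279 at 3L and 0.208 in AA.

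Cp190, a centrosomal protein that also serves chromatin insulators, lay just above the ratio limit at 3L. Its 3L libraries held 1126 and 1172 normalized counts in the D. sechellia libraries, against 4548 and 4643 for D. simulans and 5052 and 4859 for D. erecta, a log2 fold change of -1.999 ± 0.07 against D. simulans and -2.11 ± 0.07 against D. erecta (adjusted p = 2.2e-08 and 5.6e-08). The ratio was 0.212 at p8, 0.195 at p40 and 0.178 in AA. In the SET-domain chromatin gene upSET the 3L values were 998 and 971 normalized counts in the D. sechellia libraries, against 4551 and 3909 for D. simulans and 2531 and 2799 for D. erecta, and the log2 fold change was -2.10 ± 0.13 against D. simulans and -1.43 ± 0.13 against D. erecta (adjusted p = 1.2e-06 and 3.2e-05). Its adult ratio was 0.225.

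Kul, a membrane metalloprotease related to the Notch-cleaving protease Kuzbanian, had 569 and 614 normalized counts in the D. sechellia libraries, against 1380.0 and 1614 for D. simulans and 2981 and 3037 for D. erecta at 3L, with a log2 fold change of -1.33 ± 0.11 against D. simulans and -2.35 ± 0.11 against D. erecta (adjusted p = 9.1e-06 and 5.1e-07). At p40 its libraries overlapped between species, 1914 and 503 in the D. sechellia libraries, against 4376 and 1882 for D. simulans and 2782 and 2747 for D. erecta, and the difference did not pass (adjusted p = 0.064 and 0.088). Bruce, a large ubiquitin-conjugating enzyme that inhibits apoptosis, had 195 and 211 normalized counts in the D. sechellia libraries, against 529 and 625 for D. simulans and 5804 and 6096 for D. erecta at 3L, with a log2 fold change of -1.50 ± 0.12 against D. simulans and -4.87 ± 0.12 against D. erecta (adjusted p = 8.5e-06 and 1.7e-08). D. erecta stood above both other species in Bruce at all 4 stages, at 3904 or more.

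The remaining 5 genes of this class carry only CG numbers, and each was lower at all 3 earlier stages. At p40 the call of CG14438 against D. erecta was lost without D. erecta library a or b (adjusted p = 0.069 to 0.085) and that of CG31475 against D. simulans without D. sechellia library a or b or D. simulans library b (adjusted p = 0.06 to 0.078). For CG14438 the 3L log2 fold change was -1.46 ± 0.13 against D. simulans and -1.12 ± 0.13 against D. erecta (adjusted p = 1.3e-05 and 0.00013), for CG31475 -2.07 ± 0.16 against D. simulans and -1.79 ± 0.16 against D. erecta (adjusted p = 4.5e-06 and 2.3e-05), and for CG5902 -2.13 ± 0.09 against D. simulans and -1.86 ± 0.09 against D. erecta (adjusted p = 6e-08 and 4.8e-07). For CG30120 it was -4.55 ± 0.37 against D. simulans and -1.60 ± 0.37 against D. erecta (adjusted p = 7.2e-06 and 0.0067) and for CG11504 -2.17 ± 0.16 against D. simulans and -1.68 ± 0.16 against D. erecta (adjusted p = 4.3e-06 and 4.6e-05). CG30120 showed the largest difference from D. simulans of these 5 and a smaller one from D. erecta, and its 3L libraries held 24.4 and 26.6 in the D. sechellia libraries, against 614 and 626 for D. simulans and 80.5 and 78.5 for D. erecta. Its D. sechellia means of 25.5 at 3L and 149.6 at p40 were near those of D. ananassae, 24.1 and 139.8. For CG31475 the D. sechellia means of 101.9 at 3L and 1243 at p40 were above those of D. virilis, 21.0 and 269.6. At p8 D. sechellia was the lower in both genes, at 10.8 against 30.5 in D. ananassae and 428 against 1244 in D. virilis.

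The class not low at 3L held 6 members. Of these, 4 (wde, m, CG5397 and Duox) were not low at p8 and p40 either, and no other member was comparable and not low at all 3 earlier stages. Windei (wde), the cofactor of the histone H3 lysine methyltransferase Eggless, had 3901 and 4194 normalized counts in the D. sechellia libraries, against 3027 and 3129 for D. simulans and 2316 and 2226 for D. erecta at 3L. Both D. sechellia libraries were the highest of the 6, and the log2 fold change was 0.39 ± 0.08 against D. simulans and 0.83 ± 0.08 against D. erecta (adjusted p = 0.0021 and 2.9e-05). At p40 it had 3582 and 3176 normalized counts in the D. sechellia libraries, against 2353 and 2731 for D. simulans and 2149 and 1971 for D. erecta, again higher in D. sechellia, at a log2 fold change of 0.41 ± 0.12 against D. simulans and 0.71 ± 0.12 against D. erecta (adjusted p = 0.024 and 0.0035). The p40 call against D. simulans was lost without D. sechellia library a or D. simulans library a (adjusted p = 0.12 to 0.14). In AA the order was reversed, with 179.6 and 152 in the D. sechellia libraries, against 2132 and 2071 for D. simulans and 1437 and 1779 for D. erecta, a ratio of 0.109. At p8 the D. sechellia libraries disagreed, at 2516 and 181, against 2784 and 1978 for D. simulans and 1649.5 and 1649.6 for D. erecta, and the test did not pass (adjusted p = 0.14 and 0.32).

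At p40 m had 44199.8 and 35789 normalized counts in the D. sechellia libraries, against 28829 and 40774 for D. simulans and 38502 and 39922 for D. erecta, where the groups overlapped and the log2 fold change was 0.21 ± 0.55 against D. simulans and 0.02 ± 0.55 against D. erecta (adjusted p = 0.77 and 0.98). In AA, on that stage's own scale, it had 21.1 and 34.2 in the D. sechellia libraries, against 176 and 143 for D. simulans and 119.6 and 177 for D. erecta. At 3L m was higher than in D. simulans (1.08 ± 0.26, adjusted p = 0.0068) and lower than in D. erecta (-1.05 ± 0.26, adjusted p = 0.0095), and at p8 the directions were opposite. The 3L call against D. erecta was lost without D. erecta library b (adjusted p = 0.07).

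Duox, the dual oxidase that makes hydrogen peroxide at epithelia and stabilizes wing cuticle, had 2203 and 2122 normalized counts in the D. sechellia libraries, against 1892 and 2137 for D. simulans and 3042 and 3227 for D. erecta at 3L. D. sechellia lay above D. simulans without passing the test (0.10 ± 0.09, adjusted p = 0.33), and lay below D. erecta (-0.53 ± 0.09, adjusted p = 0.00096). At p8 it was lower than in both by a small margin, at a log2 fold change of -0.60 ± 0.13 against D. simulans and -0.55 ± 0.13 against D. erecta (adjusted p = 0.0042 and 0.01). The call against D. erecta was lost without D. sechellia library a or D. erecta library a (adjusted p = 0.064 to 0.07), and the D. melanogaster mean of 2252 was below that of D. sechellia, 2434. The adult libraries held 65.6 and 46.1 in the D. sechellia libraries, against 259.6 and 203 for D. simulans and 262 and 209 for D. erecta, and both D. sechellia libraries were below all others. D. virilis, at 57.8, was at the D. sechellia level of 55.8.

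CG5397 lay between the other species before the adult stage, with 88.1 and 124 normalized counts in the D. sechellia libraries, against 519.6 and 497 for D. simulans and 45.5 and 47.5 for D. erecta at 3L. It was lower than in D. simulans and higher than in D. erecta at 3L, p8 and p40, and at 3L the log2 fold change was -2.27 ± 0.20 against D. simulans and 1.15 ± 0.20 against D. erecta (adjusted p = 1.5e-05 and 0.0016). In AA it had 904 and 911 in the D. sechellia libraries, against 4418 and 4290.0 for D. simulans and 8751 and 10533 for D. erecta, and D. sechellia was the lowest.

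Upf3, which acts in nonsense-mediated mRNA decay, and CG34120, an ABC transporter of the A subfamily, were not low at 3L by their means, but their D. sechellia libraries were far apart. Upf3 had 102 and 619 normalized counts in the D. sechellia libraries, against 562 and 544 for D. simulans and 675 and 617 for D. erecta at 3L. It was lower at p8, with 80.5 and 76.1 in the D. sechellia libraries, against 441 and 385 for D. simulans and 424 and 455 for D. erecta and a log2 fold change of -2.38 ± 0.12 against D. simulans and -2.47 ± 0.12 against D. erecta (adjusted p = 1.1e-06 and 3.3e-06), and in AA both D. sechellia libraries held 40.04 and 40.1, against 336 and 238 for D. simulans and 299 and 292 for D. erecta. CG34120 had 4.3 and 201 normalized counts in the D. sechellia libraries, against 111 and 179 for D. simulans and 61.2 and 76.7 for D. erecta at 3L, and at p8 it was lower, at a log2 fold change of -5.29 ± 0.42 against D. simulans and -5.76 ± 0.42 against D. erecta (adjusted p = 3.7e-05 and 5.8e-05). In AA single libraries of these 3 species were resolved for D. sechellia only, at 1891 and 1694, against means of 39015 for D. simulans, 36020.4 for D. erecta and 34833 in D. melanogaster. Its D. ananassae mean was listed at 0.

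**Figure D4:**
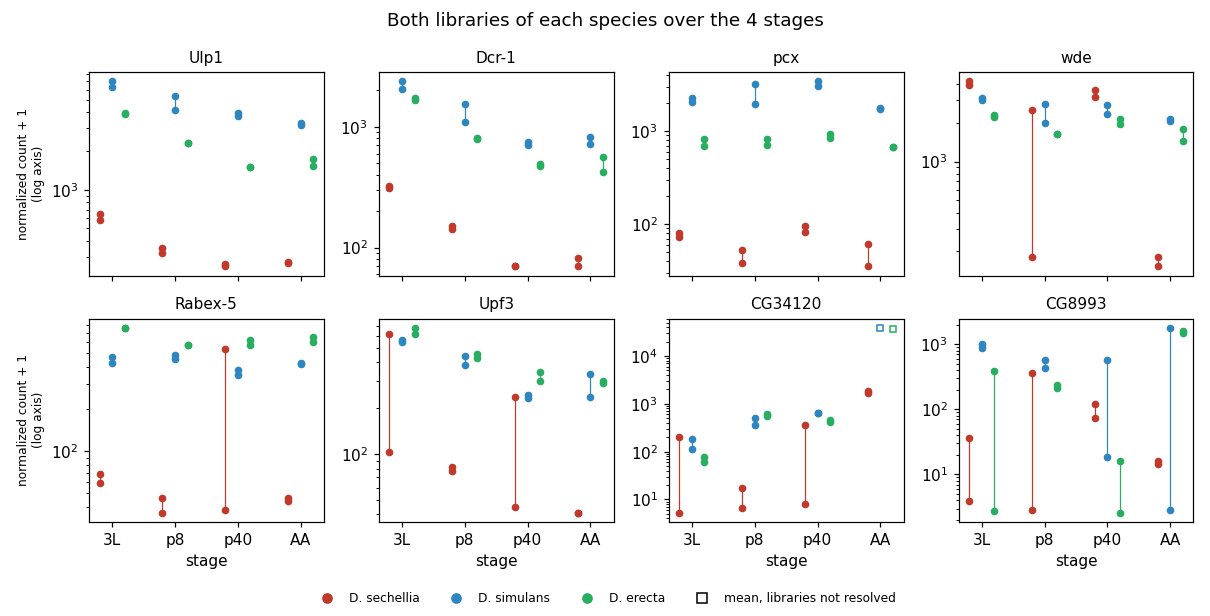
Normalized count + 1 (log axis) of both libraries of D. sechellia, D. simulans and D. erecta at 3L, p8, p40 and AA in 8 members, with a line joining the 2 libraries. Ulp1, Dcr-1 and pcx are low in both D. sechellia libraries at every stage, while wde, Rabex-5, Upf3, CG34120 and CG8993 have stages at which the 2 D. sechellia libraries lie more than 4-fold apart.

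The 18 members that could not be compared at 3L were mostly genes little expressed in the larval disc. Quiver (qvr), a Ly6-type protein that regulates the Shaker potassium channel and sleep, had 25.8 and 28.1 normalized counts in the D. sechellia libraries, against 17.3 and 10.8 for D. simulans and 10.5 and 9.13 for D. erecta at 3L, where it passed against neither species (adjusted p = 0.39 and 0.22). By p40 it was expressed in each species and lower in D. sechellia, with 147 and 146 in the D. sechellia libraries, against 1094 and 1287 for D. simulans and 440.0 and 353 for D. erecta and a log2 fold change of -3.01 ± 0.20 against D. simulans and -1.42 ± 0.20 against D. erecta (adjusted p = 1.4e-05 and 0.0017). In AA the values were 284 and 226 in the D. sechellia libraries, against 8340.4 and 9120.0 for D. simulans and 1104 and 1012 for D. erecta, and D. virilis, at a mean of 209.7, was below D. sechellia.

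The aldehyde oxidase AOX1 was likewise an adult transcript, with 1934 and 2068 normalized counts in the D. sechellia libraries, against 9436 and 7340.5 for D. simulans and 24481 and 28428 for D. erecta in AA. At p40 it held 6.98 and 10.4 in the D. sechellia libraries, against 41.3 and 51.6 for D. simulans and 114 and 97.1 for D. erecta and was lower, at a log2 fold change of -2.31 ± 0.69 against D. simulans and -3.48 ± 0.69 against D. erecta (adjusted p = 0.03 and 0.0081), and at 3L it did not pass against either species. The call at p40 was lost against D. simulans without any 1 of the 6 libraries (adjusted p = 0.051 to 0.13) and against D. erecta without D. sechellia library a or D. erecta library a (adjusted p = 0.054 to 0.055), and the p40 mean of 8.71 in D. sechellia stood near 11.7 in D. melanogaster and 13.3 in D. ananassae. The J-domain gene jdp had 334 and 291 normalized counts in the D. sechellia libraries, against 963 and 1514 for D. simulans and 2211 and 2138 for D. erecta at p40, lower at a log2 fold change of -1.95 ± 0.41 against D. simulans and -2.80 ± 0.41 against D. erecta (adjusted p = 0.0066 and 0.002). At 3L jdp was lower than in D. simulans (-1.59 ± 0.42, adjusted p = 0.011) and higher than in D. erecta (2.18 ± 0.42, adjusted p = 0.0026), the first of which was lost without D. sechellia library b or D. simulans library a (adjusted p = 0.064 to 0.077). In AA it had 260.3 and 250.4 in the D. sechellia libraries, against 3110.0 and 3026 for D. simulans and 1012 and 1042 for D. erecta.

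Dpr3 (dpr3), an immunoglobulin-domain cell surface protein of neurons, was listed at 0 in D. sechellia at 3L. At p40 it had 129 and 109 normalized counts in the D. sechellia libraries, against 169 and 273 for D. simulans and 320.4 and 250.4 for D. erecta, lower at a log2 fold change of -0.85 ± 0.28 against D. simulans and -1.25 ± 0.28 against D. erecta (adjusted p = 0.046 and 0.016). The call against D. simulans was lost without D. sechellia library a or b, D. simulans library b or D. erecta library a or b (adjusted p = 0.066 to 0.2) and that against D. erecta without D. sechellia library a or b or D. erecta library a (adjusted p = 0.056 to 0.1). Its adult libraries held 50.1 and 65.4 in the D. sechellia libraries, against 509 and 443 for D. simulans and 251 and 214 for D. erecta. CG18208, an amine G protein-coupled receptor, was little expressed at 3L and p8 in every species. Its D. sechellia libraries held 6.25 or less, and the means of the other species were at most 15.7 at 3L and 12.4 at p8. At p40 it had 55.8 and 39.4 normalized counts in the D. sechellia libraries, against 272 and 283 for D. simulans and 229.5 and 221 for D. erecta. It was lower there, at a log2 fold change of -2.54 ± 0.52 against D. simulans and -2.24 ± 0.52 against D. erecta (adjusted p = 0.0062 and 0.015). The call against D. erecta was lost without D. sechellia library b or D. erecta library a or b (adjusted p = 0.071 to 0.084). Adult D. sechellia held 5.56 and 11.9, against 142 and 89.1 for D. simulans and 366 and 483 for D. erecta.

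Cyt-c-d, a cytochrome c form known mainly from the male germline, was the single member from the list of nuclear-encoded respiratory chain genes. At p8 it was lower at a log2 fold change of -2.68 ± 0.85 against D. simulans and -3.77 ± 0.85 against D. erecta (adjusted p = 0.028 and 0.0093), and passed no longer against D. simulans without D. sechellia library a or D. simulans library b (adjusted p = 0.16 to 0.17) nor against D. erecta without D. sechellia library a or D. erecta library a (adjusted p = 0.056 to 0.063). At 3L it was below D. erecta (-4.15 ± 0.53, adjusted p = 0.00025) and was not tested against D. simulans. At p40 it had 59.3 and 37.1 normalized counts in the D. sechellia libraries, against 693 and 682 for D. simulans and 55.8 and 54.5 for D. erecta, lower than in D. simulans (-3.84 ± 0.34, adjusted p = 6.7e-05) and not past the test against D. erecta (-0.23 ± 0.34, adjusted p = 0.64). In AA both species were above D. sechellia, with 28.9 and 28.2 in the D. sechellia libraries, against 588 and 609.5 for D. simulans and 672 and 879 for D. erecta. The mean of D. virilis, 19.8, was below that of D. sechellia, 28.6.

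CG33470, which encodes precursors of immune-induced peptides and has a near-identical copy in D. melanogaster with which reads may be shared, was the member higher in D. sechellia at p8, with 59.2 and 58.4 normalized counts in the D. sechellia libraries, against 20.98 and 22.8 for D. simulans and 1.99 and 4.13 for D. erecta and a log2 fold change of 1.39 ± 0.46 against D. simulans and 3.93 ± 0.46 against D. erecta (adjusted p = 0.033 and 0.00032). This call was lost against D. simulans without D. sechellia library a or b or D. simulans library a or b (adjusted p = 0.082 to 0.11), and the gene was not tested against D. simulans with a minimum of 30. At p40 the difference from D. simulans did not pass (-0.30 ± 0.55, adjusted p = 0.68) and D. sechellia was higher than D. erecta (5.16 ± 0.55, adjusted p = 0.00052). In AA it had 25.6 and 38.6 in the D. sechellia libraries, against 21.7 and 379 for D. simulans and 649 and 426 for D. erecta, with the D. simulans libraries far apart.

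The shared values of CG13793, CG13794 and CG13795 were 25.03 and 27.5 normalized counts in the D. sechellia libraries, against 159 and 597 for D. simulans and 2321 and 2784 for D. erecta in AA. At p8 they were lower than in D. simulans (-3.82 ± 0.46, adjusted p = 0.00019) and not past the test against D. erecta (0.51 ± 0.46, adjusted p = 0.42). CG9555 and CG17906 had 30.03 and 25.3 in the D. sechellia libraries, against 441 and 542 for D. simulans and 743 and 796 for D. erecta in AA, and at 3L they were below D. erecta alone (-3.78 ± 0.96, adjusted p = 0.011), which was lost without D. sechellia library b or D. erecta library a (adjusted p = 0.055 to 0.063). CG31086 had 5.56 and 5.94 in the D. sechellia libraries, against 258 and 292 for D. simulans and 2.3 and 375 for D. erecta in AA, where 1 D. erecta library was below both of D. sechellia.

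In CG32694 at p8 D. sechellia stood above D. simulans and below D. erecta, with 3999 and 5270.2 normalized counts in the D. sechellia libraries, against 1999 and 1674 for D. simulans and 24251 and 26232 for D. erecta and a log2 fold change of 1.33 ± 0.18 against D. simulans and -2.46 ± 0.18 against D. erecta (adjusted p = 0.00037 and 2.6e-05). In AA it had 268 and 233 in the D. sechellia libraries, against 2508 and 6352 for D. simulans and 2344 and 2195 for D. erecta. CG11825 had 142 and 158 normalized counts in the D. sechellia libraries, against 1595 and 1802 for D. simulans and 994 and 1376 for D. erecta in AA and was lower at p40, at a log2 fold change of -2.88 ± 0.35 against D. simulans and -2.62 ± 0.35 against D. erecta (adjusted p = 0.00045 and 0.0014), but at 3L the log2 fold change was -0.37 ± 0.11 against D. simulans and -0.12 ± 0.11 against D. erecta (adjusted p = 0.019 and 0.4). The call at 3L against D. simulans was lost without D. sechellia library b or D. simulans library a or b (adjusted p = 0.059 to 0.14). D. melanogaster alone made it not comparable at 3L, with a mean of 14.7, and at p40 the D. sechellia mean of 27.3 was above the D. melanogaster mean of 14.5.

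CG42339 was lower at p8 (-2.96 ± 0.25 against D. simulans and -2.94 ± 0.25 against D. erecta (adjusted p = 2.4e-05 and 6.3e-05)) and at p40 (-2.48 ± 0.27 against D. simulans and -2.20 ± 0.27 against D. erecta (adjusted p = 0.00026 and 0.001)). CG33143 was the 1 member of this class called lower at 3L, at a log2 fold change of -2.96 ± 0.66 against D. simulans and -4.90 ± 0.66 against D. erecta (adjusted p = 0.005 and 0.00036). Its 3L mean was 7.93 in D. sechellia, against 10.02 in D. melanogaster, 5.13 in D. ananassae and 9.74 in D. virilis, so 3 other species were near the same low level. It was lower again at p40, at a log2 fold change of -1.88 ± 0.23 against D. simulans and -2.36 ± 0.23 against D. erecta (adjusted p = 0.00043 and 0.00033). CG17732 was at or near 0 in every species at 3L and p8, did not pass at p40 (adjusted p = 0.96 and 0.6), and had 41.2 and 32.7 in the D. sechellia libraries, against 195 and 195 for D. simulans and 455 and 549.9 for D. erecta in AA.

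Several members had D. sechellia libraries that stood at separate levels within 1 stage. A pair of libraries at least 4-fold apart, with the larger at 100 or more, occurred in 11 of 80 D. sechellia pairs of the members (13.8%), against 0.823% of D. sechellia pairs over all names. In D. simulans 3 of 144 pairs of the members did so (2.08%), against 1.41% over all names. In D. erecta it was 3 of 136 (2.21%), against 0.293%, so members exceeded the share over all names there too. The 11 pairs belonged to CG34120 and Upf3 at 3L and p40, Bruce at p8 and p40, Rabex-5 at p40, and wde, jdp, CG11825 and CG8993 at p8. Bruce had 1950.4 and 172 at p8 and 145 and 2111 at p40 in D. sechellia, against 699 and 486 and then 784 and 764 for D. simulans. The low library was neither always a nor always b of a stage, since at p8 library a was the low one in CG11825, jdp and CG8993 and library b in Bruce and wde. In AA the choice of members by a low mean leaves little room for such a pair in D. sechellia. Without the members that had such a pair in any species, 19 of 26 tested at 3L, 21 of 29 at p8 and 23 of 33 at p40 were lower. This choice was made after seeing the data, and the share over all genes was not computed under it. With no gene left out for such a pair, 8.72%, 7.46% and 5.91% of all genes tested were lower.

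Read counts of the members differed from those of other genes in another respect. The libraries were sequenced from both ends, and a gene on which both mates of each pair are counted has an even count. Most recovered counts were even. Among library values of 10 to 2000 reads over all 4 stages, 61 of 288 in D. sechellia members were odd (21.2%), against 6.51% over all names in D. sechellia. For the same members the share was 1.65% in D. erecta, where all names gave 3.23%, and 25.6% in D. simulans, where all names gave 22.8%. By class at 3L the D. sechellia share was 32.1% for low, 11.5% for between, 33.3% for not low and 15.6% for not comparable members. A minority of the genes carried these values, since 17 of 45 had any odd count in D. sechellia, and in the low class CG16868, Rabex-5, CG7280, CG12818, CG9641 and CG8993 held all of them while pcx, Pdxk, Ulp1, CG33217 and CG5010 had none. With identical values counted once the share was 20.1%. The reads were mapped to each species' own transcript models, and the part of those models in the low levels was not tested.

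**Figure D5:**
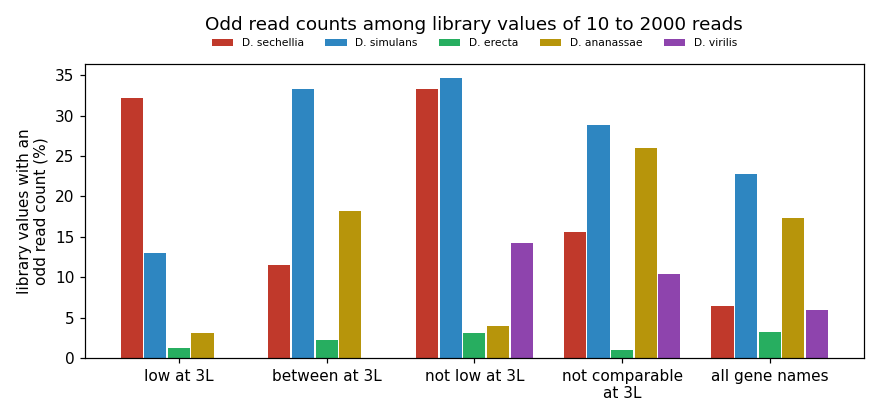
Share of library values with an odd read count (%), among values of 10 to 2000 reads over the 4 stages, for the members by class at 3L and for all gene names, in 5 species. D. sechellia members reach 32.1% and 33.3% in the low and not low classes, against 6.51% over all D. sechellia names.

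The same rule with another species as the low one picked 70 names for D. melanogaster, 127 for D. simulans and 41 for D. erecta in AA, against 45 for D. sechellia. Genes at 4 times the other 3 species or more numbered 4 in D. sechellia, 29 in D. melanogaster, 15 for D. simulans and 29 for D. erecta. Of the gene lists, those for chemosensory-associated, odorant-degrading, takeout, immune, heat shock, Osiris, fatty acid, nuclear transport and chromatin, and clock genes held no member. The nuclear transport and chromatin list is 8 names long and does not include Cp190, upSET or wde. Between 1 and 12 genes of each of these lists could have been chosen, being above 0 in D. sechellia and at 100 or more in the other 3, and 5 of the 82 respiratory chain genes could. Since 0.841% of all names met the ratio, a count of 0 in lists this short is not a result about them. The median ratio of D. sechellia to the lowest of the 3 was 1.31 over all 6062 names that could be chosen.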

How the data were processed

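The 4 deposited tables, 1 per stage, hold 24 columns of means in all: per the file headers each is a base mean, that is the average over a species' libraries of read counts divided by DESeq2 size factors, and the authors computed these normalized signal values per stage. The authors trimmed reads called with CASAVA 1.8, mapped them with BWA 0.7.8 to each species' own transcripts and joined species by ortholog names, with the most expressed transcript standing for genes that had several orthologs. 4 columns are D. melanogaster means. No sample of this series is of that species, so these means come from libraries outside it.

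Single-library values were recovered by finding the 2 whole read counts whose size-factor-scaled average equals each listed mean (97.3% to 100% of values). They were tested with limma 3.58.1 in R 4.3.3 on log2(value + 1), with a species term, trended eBayes and the spread shared by 5 species, with Benjamini-Hochberg adjustment over all genes tested per contrast. Folds on this scale understate changes of low genes. The 2 libraries per group are biological replicates of pooled flies. The procedure was tested on simulated data. A gene is called lower where it passes against both D. simulans and D. erecta. The members and gene lists were chosen with earlier results of these data known. Genes were named with values by class at 3L, up to 10 with the smallest adult ratio, plus members with a sure role, in a gene list or next to a limit of the rule. Alternatives covered the pseudocount, filters, scaling, species in the fit, trend, single libraries and the limits of the rule. Python 3.11.15 was used.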

Additional observations from a re-analysis of the deposited data

Results flagged for a closer look

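In wde and qvr both D. sechellia libraries lay above all 4 libraries of D. simulans and D. erecta at an early stage and below all 4 in AA. For wde the log2 ratio of D. sechellia to the lowest mean of D. melanogaster, D. simulans and D. erecta was 0.83 at 3L and 0.74 at p40, against -3.19 in AA. For qvr it was 1.46 at 3L, against -2.05 in AA, and the 3L values rest on 28.1 normalized counts or fewer per library. At 3L qvr passed against neither species (limma, adjusted p = 0.39 and 0.22). At p8 the D. sechellia libraries of wde held 2516 and 181. The difference between stages was not tested, and the share of all genes with D. sechellia above all 4 was not computed. CG33470 followed the same course in its means at 3L and p8 against AA, but in AA 1 D. simulans library lay below both of D. sechellia. CG31086 lay above all 4 at 3L too (17.2 and 8.88 against at most 4.71), but in AA 1 D. erecta library lay below both of D. sechellia.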

How the results depend on the processing

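No paired analysis was possible because the columns carry no replicate numbers. With a ratio limit of 0.2 the rule chose 28 genes and with 0.33 it chose 77, against 45. With the limit of 0.2, 14 of the 28 members were lower at p40, against 25 of the 45. Over all genes tested at p40 the share was 5.91%. With a pseudocount of 10, 2 of 36 members were higher than both species at 3L, against 9.18% of all genes tested. Without the trend it was 2 of 36, against 6.74%. At p8 with D. simulans and D. erecta at 30 or more it was 0 of 33, against 6.055%. Without the members that had libraries 4-fold apart, 0 were higher at each of the 3 stages. That alternative was chosen after seeing the data and leaves out wde and CG33470. Leaving out single libraries, the class low at 3L held 10 to 13 members. In the fits without a single library, a species left with 1 library was assumed to vary like the others. The counts of members called in those fits are not given. Of 181 single comparisons called, 164 were tested under every alternative fit, of which 146 were kept in each and 18 were lost in at least 1. The other 17 were not tested with D. simulans and D. erecta at 30 or more, and 8 of them were lost in at least 1 of the other fits. None reversed. Over genes well expressed in every species, the median log2 ratio of each species to their average was at most 0.06 either way. The shifts per library that the rescaled fits used are not given. Depth is unknown at 3L and AA, and 2 libraries per group limit the precision at every stage.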
